A study of Mus musculus with 15 samples.

Results

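Axon guidance ligands and receptors were examined in the cortex of mice at 1 month after repeated, high-frequency impact to the head (HF-HI) and in Sham mice. Members were the protein-coding transcripts whose GENCODE gene name begins with Sema3 to Sema7, Plxn, Epha, Ephb, Efna, Efnb, Robo, Slit, Ntn or Unc5, or is Nrp1 or Nrp2. There were 44 such transcripts, of 39 genes, among the 10370 transcripts in the table. The semaphorin system gave 9 ligand transcripts of 8 genes and 10 receptor transcripts of 9 genes, which are 8 plexins and neuropilin 1. The ephrin system gave 4 ephrin transcripts and 10 transcripts of 8 Eph receptors, and the Slit system gave 3 Slit transcripts and 3 transcripts of 2 Robo genes. Of the netrin system, 4 transcripts of 4 Unc5 receptors were present, and netrins and Nrp2 were not analysed here. Unc50 matched by its name alone. It encodes a membrane protein that is not a netrin receptor, and it is kept in the counts as 1 of the 44. A retained-intron transcript of Robo2 was set aside because it is not protein-coding. Its reads enter the member results only in the test on reads summed per gene.

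Sham and HF-HI mice were male animals, labelled C57BL/6 (C57Bl/6J in the methods of the study) and labelled as 12 weeks of age. Per the methods of the study, HF-HI mice were anesthetized and received repeated head impacts on consecutive days, and Sham mice had the same handling and anesthesia without impacts, so that anesthesia is shared by both groups. RNA came from the dissected cortex, a mixture of neurons, glia and vessels, in 7 Sham and 8 HF-HI libraries of stranded, rRNA-depleted total RNA. The labels do not say whether replicates are separate animals, so P values measure the spread between these libraries. In such bulk tissue, fewer cells of a type and less RNA per cell cannot be told apart.

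Axon guidance systems pair a ligand, secreted or held on a cell surface, with a receptor on the growing axon. Semaphorins signal through plexins, the secreted class 3 members with neuropilins as co-receptors. Ephrins bind the Eph receptor tyrosine kinases on a neighbouring cell, Slits bind Robo receptors and repel axons, and netrins bind DCC or the Unc5 receptors. Many of these molecules stay expressed in the adult cortex, where they are known for roles at synapses and dendritic spines.

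The reads recovered from the listed transcripts numbered 5798810 to 10582858 per Sham library and 3496103 to 8666307 per HF-HI library. HF-HI minus Sham, the mean log2 size factors differed by −0.55 (P = 0.0280, two-sided exact permutation test). Library depth therefore moves with group, and 2 fits bear on it: one with depth as a covariate, and one, added after seeing the data, on the 6 Sham and 3 HF-HI libraries with a size factor above 1 (the deeper libraries). HF-HI replicate 2 stood apart from the other libraries, at 12.6 on the first principal component against −3.35 to 0.721. Against the labelled tissue, all 6 neuronal, 5 astrocytic, 5 oligodendrocytic, 5 microglial and 7 cortical layer marker genes were listed, and none of 4 thalamic markers was. Of 6 striatal markers, 5 were listed, Drd2 was not, and their summed normalized counts were 3257 to 5405 in Sham and 2494 to 5504 in HF-HI. Of 5 choroid plexus markers, Ttr alone was listed, at 34.97 to 6685 normalized counts in Sham and 21.04 to 8663 in HF-HI, highest in replicate 2 of each group. The part of these marker levels in the results was not tested. The member transcripts were covered by at least 37 reads in every Sham library, and by at least 4 in every HF-HI library, the lowest being Plxnb2 ENSMUST00000060808 in HF-HI replicate 4.

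In HF-HI, 5 members were higher and 2 were lower than in Sham at an unadjusted P under 0.05 in limma. The higher members were the receptors Plxna1, Plxna4, Ephb6 and Unc5d and the ligand Sema7a, and the lower members were the receptors Unc5c and Robo1. Each transcript was tested with limma on the deposited variance-stabilized (VSD) values, a log2-like scale on which low counts are compressed, and a call means an unadjusted P under 0.05. Values per library are given as normalized counts, recovered by inverting that scale. The 7 members are 15.9% of the 44, where 8.83% of all listed transcripts passed the same test. In the higher direction 4.94% of all transcripts passed, and in the lower direction 3.9%. After Benjamini-Hochberg adjustment of the limma P values, 0 of 10370 transcripts (0%) were under 0.1, and the smallest adjusted P of a member was 0.227, for Plxna1. The changes were small, with log2 ratios of mean normalized counts between 0.09 and 0.21 in absolute size among the called members. Over all 44 members, the median log2 ratio was 0.03 and the range was −0.19 to 0.24, against a median of −0.00191 over all transcripts. The fitted difference was above 0 for 25 of 44 members (56.8%), where it was above 0 for 48.5% of all transcripts, and its sign turned for 9 of 44 with depth as a covariate and for 12 of 44 in the deeper libraries. No member had group ranges that did not overlap, which was so for 0.154% of all transcripts. For 5 members, every HF-HI library exceeded the median of Sham (Plxna1, Plxna4, Sema7a, Unc5d and Nrp1), where this held for 3.8% of all transcripts. Every HF-HI library was under it for Unc5c alone, where this held for 2.91%.

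The share of members called was not above that of all transcripts under every fit, and the difference between the shares was not tested. With the log2 size factor as a covariate, 2 of 44 members were called (4.55%, Plxna1 and Unc5c), beside 5.14% of all transcripts. Without HF-HI replicate 2, 11 of 44 members were called (25.0%), among them the 7 named above, beside 8.69% of all transcripts. Reads were also summed over all listed transcripts of each gene, coding or not, and tested with limma voom. In this fit 6 of 39 member genes were called (15.4%), beside 9.43% of all genes, and Plxna4 fell outside the threshold (log2 difference 0.08).

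**Figure D1:**
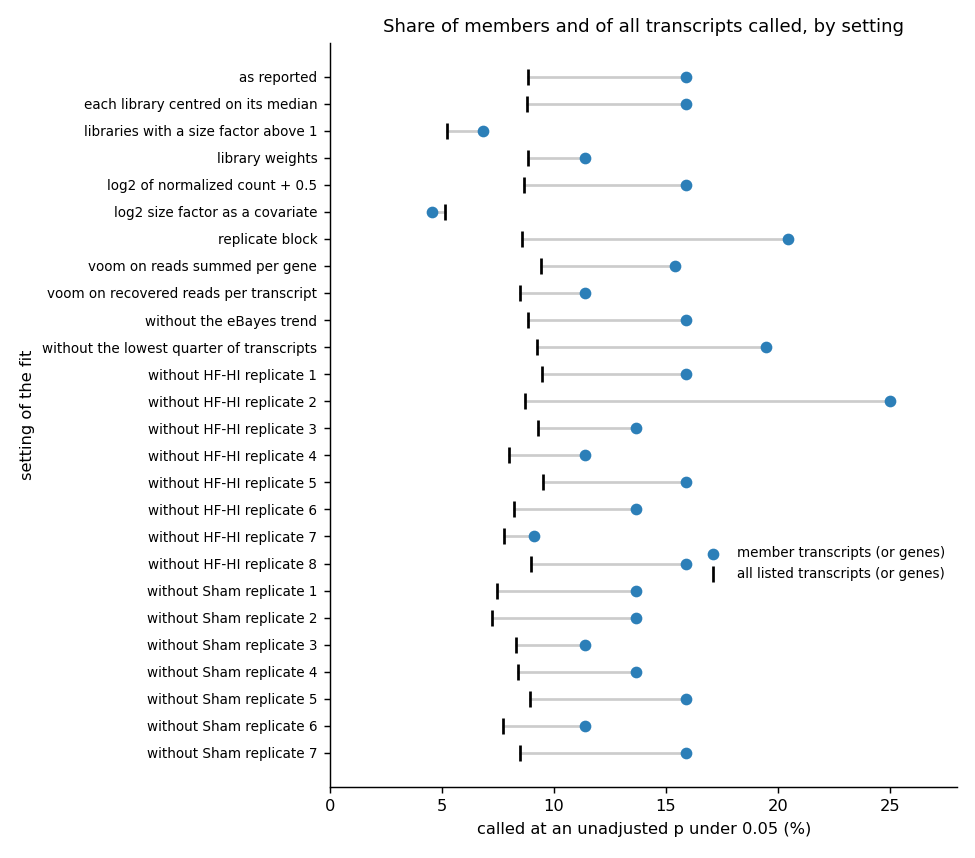
Percent of transcripts (or, for summed reads, genes) with an unadjusted P under 0.05 on the horizontal axis, for members (blue points) and for all listed transcripts (black ticks), in each setting of the fit on the vertical axis. The member share lies between 4.55% and 25.0%, and it lies left of the tick only with the log2 size factor as a covariate.

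Levels of different genes were compared as mean normalized counts per kilobase of transcript. Epha4, an Eph receptor that binds ephrins of both classes, was the most abundant member at 408 ± 19.97 per kilobase (SD, n = 15 libraries). Sema7a, a semaphorin anchored to the membrane by a lipid, followed at 380 ± 36.1, and this gap is smaller than the spread of Sema7a. Ephb6, an Eph receptor without kinase activity, had 291 ± 24.5, and Plxna2, a plexin that signals for class 3 and class 6 semaphorins, had 178 ± 10.3. These steps, from Sema7a to Ephb6 and from Ephb6 to Plxna2, are larger than the spread of either transcript. Over the whole order, the gap was larger than the larger SD of the pair in 6 of 43 neighbouring pairs. The SD is the spread between libraries of both groups, and whether neighbouring means differ was not tested. The lowest member was Plxnb2 ENSMUST00000060808 at 19.7 per kilobase. The highest ligand and receptor of the other systems were Efnb3 (141 per kilobase), Slit3 (69.1), Robo2 ENSMUST00000117200 (125) and Unc5a (106). Members were long transcripts, with a median length of 5959 bases against 3755 bases for all listed protein-coding transcripts, and 37 of 44 were longer than that median. Their median level was 65.0 per kilobase, against 96.0 for all protein-coding transcripts.

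**Figure D2:**
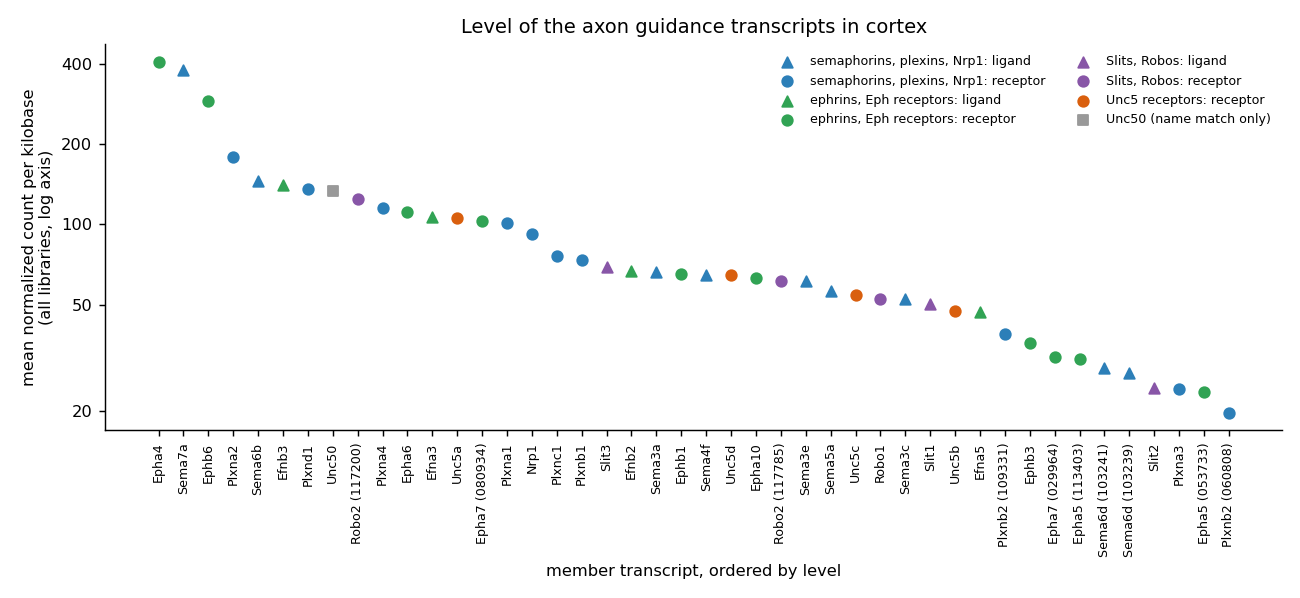
Mean normalized count per kilobase over all 15 libraries (vertical log axis) for the 44 member transcripts in descending order (horizontal axis), with triangles for ligands, circles for receptors and colours for the systems. Epha4, Sema7a and Ephb6 lie above the rest, at 408, 380 and 291.

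Of the 9 semaphorin ligand transcripts, 1 was called higher in HF-HI (11.1%) and none was called lower, beside 8.83% of all transcripts called. Sema7a (ENSMUST00000043059, chr9:57940113-57962865, GRCm38, plus strand), which signals through integrins and plexin C1, ranged from 1059 to 1309 normalized counts in Sham with a median of 1135. In HF-HI it ranged from 1198 to 1478 with a median of 1332. All 8 HF-HI libraries were above the Sham median and 5 were above every Sham library. The mean was 1182 ± 100.1 in Sham and 1318 ± 99.96 in HF-HI (SD, n = 7 and 8), an increase of 11.5% (limma adjusted P = 0.461), with a VSD difference of 0.08 and a 95% interval of 0.02 to 0.14. The call on Sema7a stayed when any 1 library was left out. It ended with depth as a covariate, where the VSD difference was 0.06, and in the deeper libraries (0.07). Plxnc1, its plexin, had 562 ± 34.3 in Sham and 553 ± 32.7 in HF-HI and was not called (limma adjusted P = 0.921).

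The secreted class 3 semaphorins Sema3a, Sema3c and Sema3e gave no call, with log2 ratios between −0.06 and 0.09. Among the transmembrane classes, Sema5a, which carries thrombospondin repeats, had the smallest P of the uncalled ligands that were higher. It ranged from 550 to 618 normalized counts in Sham (median 603) and from 524 to 680 in HF-HI (median 627, limma adjusted P = 0.679). Of the HF-HI libraries of Sema5a, 5 lay above every Sham library and 1, replicate 1, lay below every one, and without that library Sema5a was called. Sema6b, a ligand of A-type plexins, had the smallest P of the ligands that were lower. It ranged from 502 to 639 in Sham (median 577) and from 395 to 611 in HF-HI (median 527), with 7 of 8 HF-HI libraries below the Sham median (limma adjusted P = 0.656). Without HF-HI replicate 2, Sema6b was called (VSD difference −0.06).

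Of the 10 transcripts of semaphorin receptors, 2 were called higher (20%) and none was called lower, where 4.94% of all transcripts were called higher. Both calls were A-type plexins, the signalling subunits used by class 3 and class 6 semaphorins, and the other 2 A-type plexins were not called. Plxna1 (ENSMUST00000163139, chr6:89316314-89362620, minus strand) ranged from 737 to 915 normalized counts in Sham with a median of 848, and from 875 to 1020 in HF-HI with a median of 999. The ranges overlapped through a single HF-HI library, replicate 2, and the other 7 lay above every Sham library. The mean was 846 ± 61.1 in Sham and 980 ± 49.4 in HF-HI, an increase of 15.9% and a log2 ratio of 0.21 (limma adjusted P = 0.227). The VSD difference for Plxna1 was 0.10, with a 95% interval of 0.05 to 0.14. Its unadjusted P was the smallest of all members, and the call stayed under every alternative, with a VSD difference of 0.10 under the depth covariate.

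Plxna4 (ENSMUST00000115096, chr6:32144268-32588192, minus strand) ranged from 1351 to 1546 normalized counts in Sham (median 1411) and from 1413 to 1626 in HF-HI (median 1522). Every HF-HI library was above the Sham median, and 2 were above all Sham libraries. The mean rose by 6.45%, from 1433 ± 76.3 to 1526 ± 71.2 (limma adjusted P = 0.525). The Plxna4 call was less stable, ending in 7 of 15 fits that left out 1 library. It also ended with depth as a covariate, where the VSD difference was 0.03 beside 0.05 as reported, in the deeper libraries (0.02) and with voom on recovered reads (log2 difference 0.08). The other A-type plexins were not called: Plxna2 had 1955 ± 88.8 normalized counts in Sham, from 1802 to 2056 with a median of 1963. In HF-HI it had 1984 ± 137, from 1782 to 2188 with a median of 1960 (limma adjusted P = 0.924). Plxna3 had 166 ± 16.9 and 169 ± 27.3 (limma adjusted P = 0.967). None of the 5 transcripts of B, C and D plexins was called, with log2 ratios between −0.08 and 0.19.

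Nrp1, the neuropilin that class 3 semaphorins bind, ranged from 292 to 376 normalized counts in Sham (median 303) and from 319 to 412 in HF-HI (median 334). The 8 HF-HI libraries all exceeded the median of Sham and 1 lay above every Sham library, yet the test was not passed (limma adjusted P = 0.637, 95% interval of the VSD difference −0.01 to 0.08). Without Sham replicate 5, Nrp1 was called (VSD difference 0.05).

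**Figure D3:**
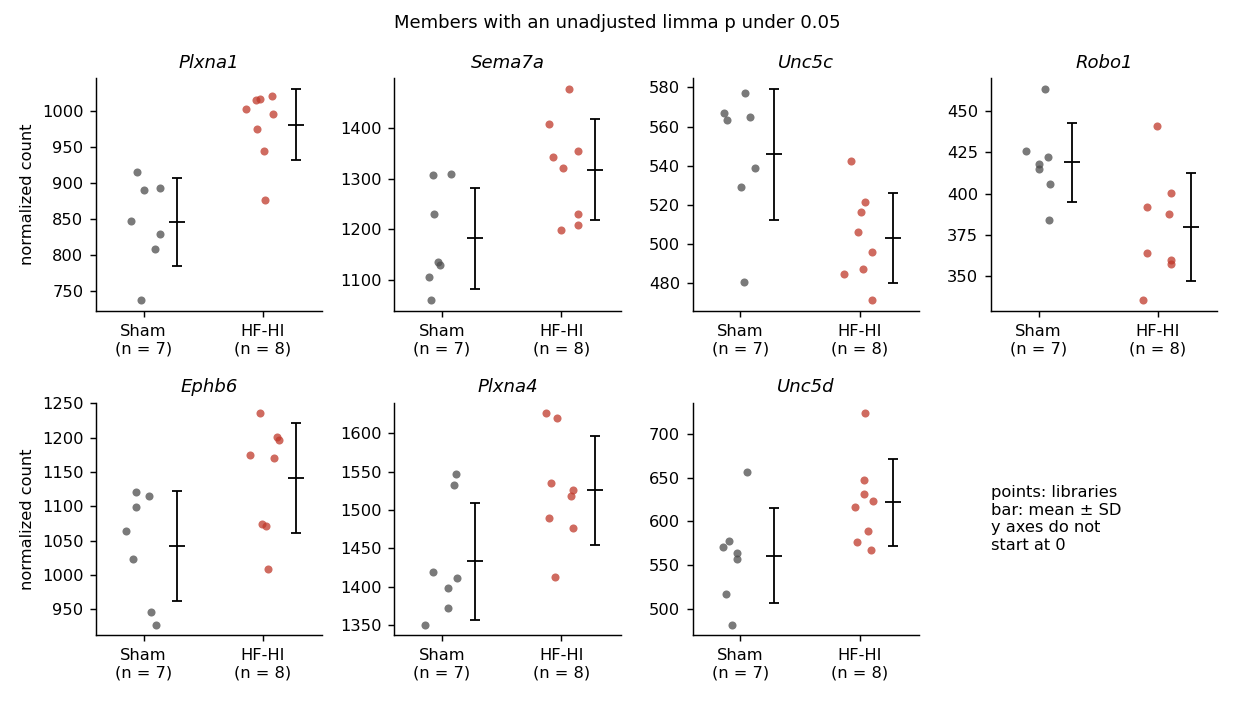
Normalized counts per library (vertical axes, which do not start at 0) in Sham (grey) and HF-HI (red) for the 7 members with an unadjusted limma P under 0.05, with the mean and SD as bars. In Plxna1, 7 of 8 HF-HI points lie above every Sham point, and in the other 6 panels the groups overlap more.

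In the ephrin system 1 of 14 transcripts was called (7.14%), a receptor, beside 8.83% of all transcripts. The 4 ephrins Efna3, Efna5, Efnb2 and Efnb3 had log2 ratios between −0.05 and 0.06. Efnb3, the ephrin with the highest level, ranged from 391 to 506 normalized counts in Sham (median 456) and from 393 to 545 in HF-HI (median 426). Its means were 449 ± 43.9 and 448 ± 54.1 (limma adjusted P = 0.992), with a 95% interval of the VSD difference of −0.06 to 0.06.

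Ephb6 (ENSMUST00000114732, chr6:41605482-41620509, plus strand) ranged from 927 to 1121 normalized counts in Sham (median 1063) and from 1008 to 1235 in HF-HI (median 1173). Of the 8 HF-HI libraries, 7 were above the Sham median and 5 were above every Sham library. The mean was 1042 ± 79.6 in Sham and 1141 ± 79.8 in HF-HI, an increase of 9.51% (limma adjusted P = 0.514). The Ephb6 call ended in 5 of 15 fits that left out 1 library. It also ended with depth as a covariate, where the VSD difference was 0.03 beside 0.06 as reported, in the deeper libraries (0.05) and with library weights (0.05). Epha4 had 2551 ± 112 and 2614 ± 138 normalized counts, and its groups overlapped almost wholly, from 2380 to 2709 in Sham (median 2580) and from 2410 to 2853 in HF-HI (median 2630, limma adjusted P = 0.822). The other Eph receptors were not called, and their log2 ratios ran from −0.18 to 0.24.

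Epha7 was listed with a full-length transcript and a truncated one that ends before the kinase domain. The truncated transcript, ENSMUST00000080934, had the smallest P among uncalled members that were lower. It ranged from 266 to 368 normalized counts in Sham (median 314) and from 221 to 320 in HF-HI (median 282), and 7 of 8 HF-HI libraries lay under the median of Sham. The mean was 315 ± 37.0 in Sham and 279 ± 34.1 in HF-HI, 11.4% lower (limma adjusted P = 0.596, 95% interval of the VSD difference −0.10 to 0.00). It was called without Sham replicate 5, Sham replicate 7 or HF-HI replicate 2, and under the replicate block. The full-length Epha7 transcript, ENSMUST00000029964, had 202 ± 59.3 and 226 ± 57.2 (limma adjusted P = 0.842).

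Among Slits and Robos, 1 of 6 transcripts was called (16.7%), the receptor Robo1, beside 8.83% of all transcripts. Robo1 (ENSMUST00000023600, chr16:72663149-73046095, plus strand) ranged from 384 to 463 normalized counts in Sham (median 418) and from 336 to 441 in HF-HI (median 376). Of the HF-HI libraries, 7 of 8 were below the Sham median and 4 were below every Sham library. The mean was 419 ± 23.9 in Sham and 380 ± 32.7 in HF-HI, 9.37% lower (limma adjusted P = 0.504). The Robo1 call ended without Sham replicate 6 (VSD difference −0.04), with depth as a covariate (−0.02) and in the deeper libraries (−0.02), beside −0.05 as reported.

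Robo2 ENSMUST00000117200, the more abundant of its coding transcripts, had 757 ± 54.7 and 738 ± 60.3 normalized counts (limma adjusted P = 0.880), with ranges of 707 to 852 in Sham (median 739) and 652 to 851 in HF-HI (median 740). Its other coding transcript, ENSMUST00000117785, had 512 ± 51.3 in Sham and 538 ± 36.0 in HF-HI (limma adjusted P = 0.769). It was called, as higher, without Sham replicate 7. Of the ligands, Slit1, Slit2 and Slit3 were not called. Slit3 ranged from 347 to 421 in Sham (median 372) and from 324 to 411 in HF-HI (median 339), with 5 of 8 HF-HI libraries below every Sham library (limma adjusted P = 0.698). HF-HI replicate 2 was the highest library of its group for Slit3, and without it Slit3 was called.

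The Unc5 receptors mediate repulsion by netrins and also bind FLRT adhesion proteins. Of their 4 transcripts, 2 were called (50%), 1 higher and 1 lower, beside 8.83% of all transcripts. Unc5c (ENSMUST00000106236, chr3:141465216-141834924, plus strand) ranged from 480 to 577 normalized counts in Sham (median 563) and from 471 to 542 in HF-HI (median 501). The 8 HF-HI libraries were all under the median of Sham, although Sham replicate 5 was nearly as low as the lowest of them. The mean was 546 ± 33.4 in Sham and 503 ± 23.2 in HF-HI, 7.85% lower (limma adjusted P = 0.476). The Unc5c call stayed under every alternative, and the VSD difference moved from −0.04 to −0.06 under the depth covariate.

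Unc5d (ENSMUST00000168630, chr8:28646717-29219636, minus strand) ranged from 483 to 657 normalized counts in Sham (median 565) and from 567 to 723 in HF-HI (median 620). The 8 HF-HI libraries all exceeded the median of Sham, and 1 was above every Sham library. The mean was 561 ± 54.2 in Sham and 622 ± 49.3 in HF-HI, an increase of 10.8% (limma adjusted P = 0.532). The Unc5d call ended in 6 of 15 fits that left out 1 library. It also ended with depth as a covariate, where the VSD difference was 0.03 beside 0.06 as reported, in the deeper libraries (0.02), with library weights (0.04) and with voom on recovered reads (log2 difference 0.13). As a description of this pair, which was chosen after its values were seen, the ratio of Unc5d to Unc5c counts was 0.913 to 1.24 in Sham (median 1.01) and 1.14 to 1.39 in HF-HI (median 1.22).

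Unc5a and Unc5b were not called. Unc5a ranged from 338 to 476 normalized counts in Sham (median 412) and from 224 to 471 in HF-HI (median 416), with means of 407 ± 52.5 and 403 ± 80.0 (limma adjusted P = 0.972). The lowest HF-HI value of Unc5a was that of replicate 3, and the other 7 libraries lay between 369 and 471. Unc50 had a log2 ratio of −0.17 (limma adjusted P = 0.764).

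**Figure D4:**
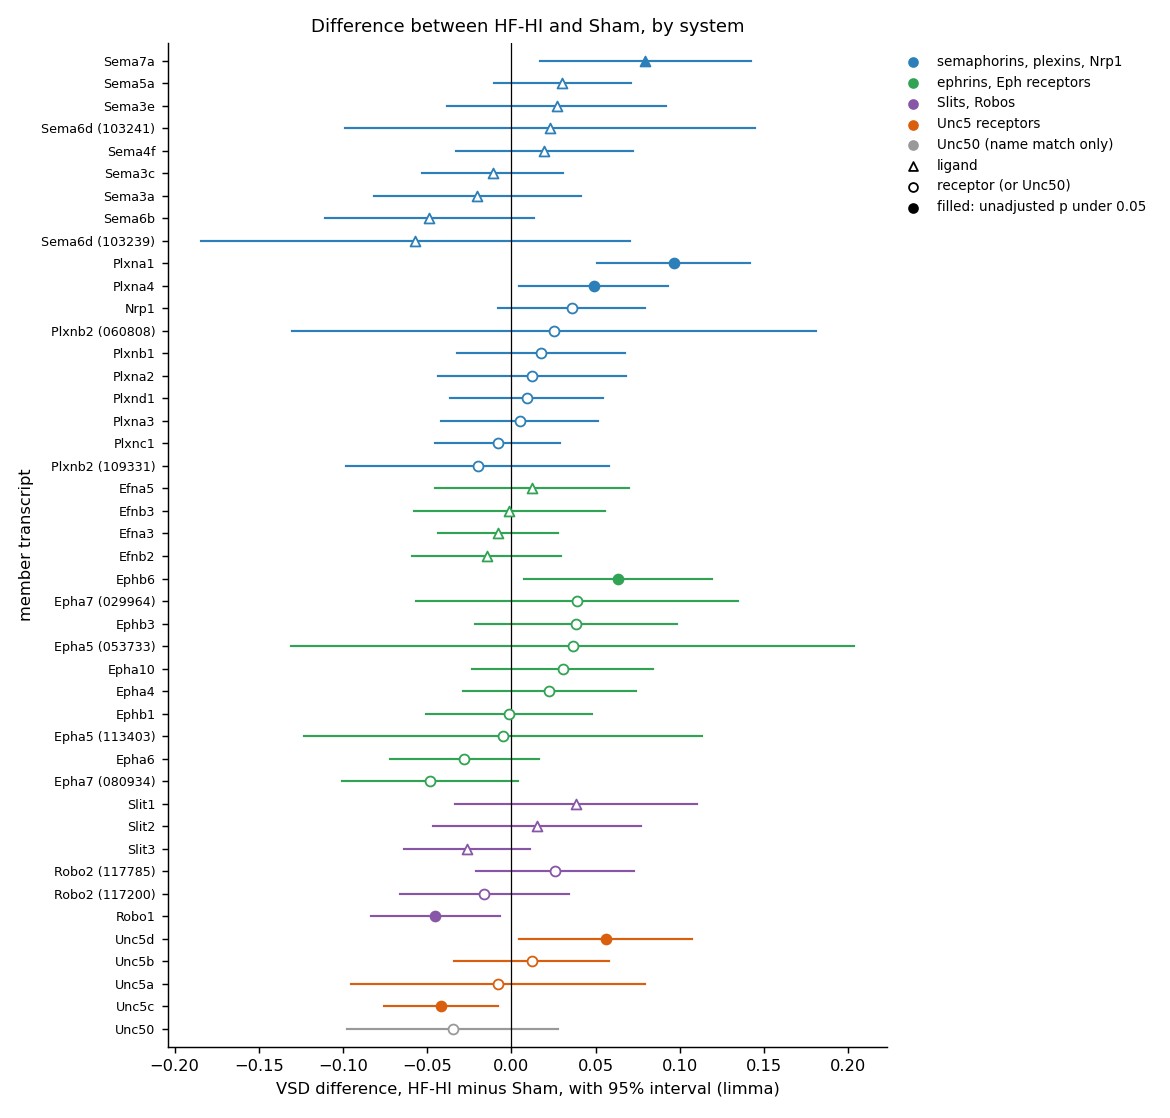
Difference in VSD between HF-HI and Sham (horizontal axis, points) with its 95% interval from limma (lines) for each of the 44 members (vertical axis), coloured by system, with filled symbols for an unadjusted P under 0.05. The 7 filled symbols are Plxna1, Sema7a, Ephb6, Unc5d and Plxna4 to the right of 0 and Robo1 and Unc5c to the left, and the widest intervals belong to transcripts of Epha5, Plxnb2 and Sema6d.

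Intervals for the 37 uncalled members reached from −0.18 to 0.20 in VSD difference, so that a P above the threshold does not show equal levels. On this scale a doubling moves the VSD by 0.20 from 100 normalized counts, by 0.33 from 300 and by 0.53 from 1000.

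For 5 member genes a pair of coding transcripts was listed, and the share of reads in the more abundant one was compared by an exact two-sided permutation test over libraries, with Benjamini-Hochberg adjustment over the 5 genes. No share passed the test. The smallest P that the 6435 splits allow is 0.0001554. In Epha7, the truncated transcript held 61.4% ± 8.16 of reads in Sham and 55.7% ± 5.97 in HF-HI (exact permutation P = 0.142, adjusted P = 0.550). Its share ranged from 49.5% to 72.7% in Sham (median 64.1%) and from 44.8% to 66.4% in HF-HI (median 55.3%). The Robo2 transcript ENSMUST00000117200, which lacks exons of the longer form, held 59.7% ± 3.27 and 57.8% ± 2.40 (exact permutation P = 0.220, adjusted P = 0.550), the tightest share of the 5.

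The other pairs varied widely between libraries of the same group. Sema6d ENSMUST00000103241 held 47.6% ± 10.6 in Sham and 54.9% ± 21.3 in HF-HI (exact permutation P = 0.422), and in HF-HI its share ranged from 19.3% to 71.3% (median 62.8%). Epha5 ENSMUST00000053733 held 51.4% ± 19.1 and 54.4% ± 20.8 (exact permutation P = 0.777), with single libraries from 11.2% to 79.8%. Plxnb2 ENSMUST00000109331 held 69.0% ± 12.4 and 65.2% ± 15.2 (exact permutation P = 0.593). The highest shares were 97.7% in HF-HI replicate 4, the shallowest library, and 93.0% in Sham replicate 5, with a size factor of 1.43. The Plxnb2 transcripts share their whole coding sequence of 5526 bases and differ in untranslated exons alone, where reads can tell them apart. Their levels correlated at r = −0.80 over the 15 libraries, which share the reads of 1 gene. Summed over transcripts, Plxnb2 averaged 377 ± 31.7 in Sham and 380 ± 35.7 in HF-HI, and Epha5 had 305 ± 35.3 and 329 ± 96.8.

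**Figure D5:**
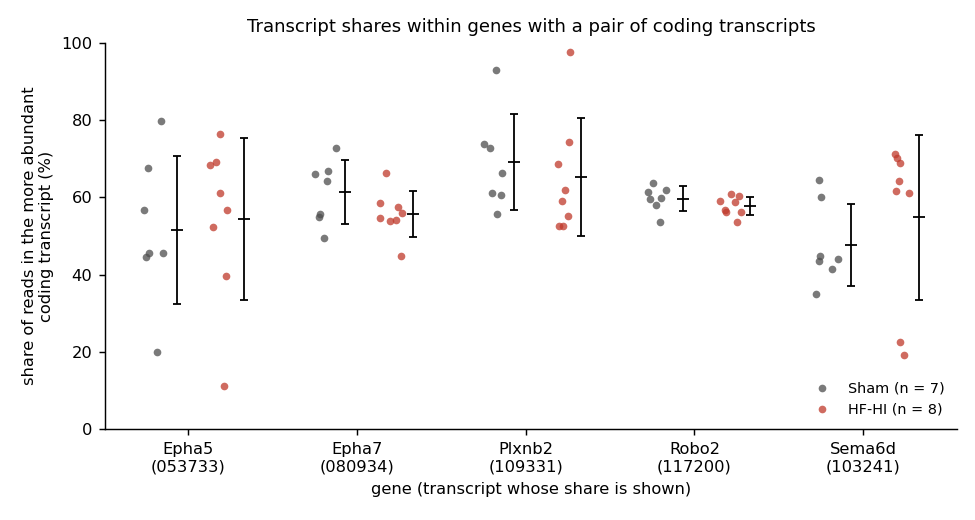
Percent of the reads of a gene in its more abundant coding transcript (vertical axis) per library in Sham (grey) and HF-HI (red) for 5 genes (horizontal axis, last 6 digits of the transcript identifier in parentheses), with mean and SD as bars. Robo2 shares lie between 53.6% and 63.8% in all libraries, whereas Epha5 shares run from 11.2% to 79.8%.

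The sequences that tell these transcripts apart are shown to place each share in the gene. They were read from the GRCm38 transcripts of GENCODE, 5′ to 3′ on the coding strand. Capitals mark the coding bases of the named exon that were found in 1 transcript only. Neighbouring bases from adjacent exons and any stop codon are in lower case. Lower case does not mean shared where the adjacent exon is also found in 1 transcript only. This holds after Epha7 exon 10, after Epha5 exon 4 and between Sema6d exons 17 and 18. For Epha7, both forms share their first coding part and then diverge. The truncated form ends after 32 bases of its own (chr4:28946219-28946250, plus strand, exon 10 of 10), for a protein of 610 residues. The full-length form goes on with 8 coding exons of its own, of which the first is shown (chr4:28947528-28947653, exon 10 of 17), for a protein of 998 residues.
Epha7 truncated end: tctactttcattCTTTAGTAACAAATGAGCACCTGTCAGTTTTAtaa
Epha7 full-length exon 10: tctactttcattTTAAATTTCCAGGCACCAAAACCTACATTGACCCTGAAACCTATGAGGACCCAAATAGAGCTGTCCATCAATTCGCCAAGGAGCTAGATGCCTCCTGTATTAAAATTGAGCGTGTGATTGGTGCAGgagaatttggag

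Epha5 ENSMUST00000113403 encodes 1040 residues and has 2 coding exons that ENSMUST00000053733 (876 residues) lacks. The shorter of these, exon 4 of 18, has 156 bases (chr5:84237399-84237554, minus strand). Robo2 ENSMUST00000117785 encodes 1508 residues against 1377 and adds exon 21 of 28 with 126 bases (chr16:73933046-73933171, minus strand) and exon 26 with 273 bases (chr16:73898912-73899184). Sema6d ENSMUST00000103239 encodes 1073 residues against 998 and adds exon 17 of 19 with 57 bases (chr2:124660705-124660761, plus strand) and exon 18 with 168 bases (chr2:124662204-124662371).
Epha5 exon 4: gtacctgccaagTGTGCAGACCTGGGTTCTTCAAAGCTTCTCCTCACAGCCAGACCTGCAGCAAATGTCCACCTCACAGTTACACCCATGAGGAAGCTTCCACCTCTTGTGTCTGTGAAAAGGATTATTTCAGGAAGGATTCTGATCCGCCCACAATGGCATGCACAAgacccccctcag
Robo2 exon 21: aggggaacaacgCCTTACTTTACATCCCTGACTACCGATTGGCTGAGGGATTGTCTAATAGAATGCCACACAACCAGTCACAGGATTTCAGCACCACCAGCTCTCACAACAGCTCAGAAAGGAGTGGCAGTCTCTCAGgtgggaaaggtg
Sema6d exon 17: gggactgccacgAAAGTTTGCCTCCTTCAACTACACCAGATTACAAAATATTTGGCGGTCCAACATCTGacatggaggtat
Sema6d exon 18: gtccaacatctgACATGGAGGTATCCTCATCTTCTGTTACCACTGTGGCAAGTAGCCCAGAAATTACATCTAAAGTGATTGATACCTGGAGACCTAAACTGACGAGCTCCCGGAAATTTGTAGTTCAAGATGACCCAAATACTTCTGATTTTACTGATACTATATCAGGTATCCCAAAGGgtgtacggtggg

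Partners of the guidance systems were taken from a list of 89 genes, of which 74 were listed with 106 transcripts. Of these, 12 transcripts (11.3%) were called, 9 higher and 3 lower, beside the background of 8.83%. With depth as a covariate 8 of the 106 partner transcripts were called, 7 higher and 1 lower, beside 5.14% of all transcripts. In the deeper libraries 5 of the 106 were called, all higher, beside 5.22% of all transcripts. Among 72 transcripts of intracellular mediators, 6 were higher and 2 lower, and among 34 of partner receptors, ligands and adhesion molecules, 3 were higher and 1 lower. Mical3, a monooxygenase that acts on actin downstream of plexins, averaged 321 ± 17.4 in Sham and 366 ± 23.4 in HF-HI, as normalized counts (limma adjusted P = 0.319). Trio, a signalling protein used by netrin receptors, had 2559 ± 111 and 2721 ± 80.7 (limma adjusted P = 0.408). Ssh1, a phosphatase that activates cofilin, had 159 ± 12.1 and 193 ± 21.2 (limma adjusted P = 0.356). In Cntn1, an adhesion molecule of axons, the transcript ENSMUST00000068378 had 547 ± 50.8 and 723 ± 133 (limma adjusted P = 0.319), while its other coding transcripts were not called. The lower partners were transcripts of Rtn4, Fyn and Pak3, and Fyn, a kinase used by several guidance receptors, had 491 ± 29.9 and 443 ± 47.5 (limma adjusted P = 0.531). The other listed coding transcripts of Rtn4 and Pak3 were not called, and they did not all go lower. The netrin receptor Dcc had 184 ± 21.1 and 191 ± 35.9 (limma adjusted P = 0.942) and was not called. Of the FLRT proteins, surface ligands of Unc5 receptors, Flrt1 was called higher, at 371 ± 28.7 and 410 ± 33.4 with all 8 HF-HI libraries above the Sham median (limma adjusted P = 0.532). Flrt2 had 1326 ± 69.4 and 1258 ± 106 (limma adjusted P = 0.702) and Flrt3 had 249 ± 28.8 and 221 ± 27.2 (limma adjusted P = 0.598), and neither was called.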

How the data were processed

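Total RNA of dissected cortex was sequenced in 15 libraries (7 Sham, 8 HF-HI), grouped by the labels. Per the labels and the methods of the study, the authors aligned reads to mm10 with STAR, counted transcripts with eXpress and normalized with DESeq2. They deposited variance-stabilized (VSD) values on a log2 scale for 10370 transcripts, with a lowest mean of 107.9 normalized counts. The versions of STAR and eXpress are not given in the sources used here.

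The transformation was inverted from the VSD of a count of 0 (9.81), which gave normalized counts, size factors and whole reads (100% of values within 0.1 reads). The scale compresses low counts, so log2 ratios of mean normalized counts stand beside VSD differences. Levels between genes are per kilobase of GENCODE M21 transcript (10241 transcripts matched, 129 did not). Each transcript was tested by a two-sided linear model of group (limma 3.58.1 in R 4.3.3, eBayes with trend) fitted to these values, with Benjamini-Hochberg adjustment over the whole table. No count model was run as the main test, which was planned on the deposited values before whole reads were recovered. Voom on recovered reads was an alternative. Intervals cover the spread between libraries. Transcript shares were tested with exact permutation (Python 3.11.15, numpy 2.4.6), and the intervals used t quantiles from scipy 1.17.1. The code was tested on simulated data.

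Named members were those with an unadjusted P under 0.05, the 2 with the next smallest P in each direction, and the ligand and receptor with the highest level per kilobase in each system. Other members were given by ranges and counts, and those named beyond the rule were chosen after their values were seen. The members and lists were chosen with earlier results of these data known. Partner genes and cell markers came from general knowledge. No library was left out. Transcript counts estimated by eXpress divide shared reads between transcripts of a gene, which can move the values of paired transcripts. Alternatives changed the prior, scaling, low filter, depth covariate, scale of values, library weights, replicate block, unit of the test and the libraries entered.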

Additional observations from a re-analysis of the deposited data

Results flagged for a closer look

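In 7 cases a single library of a group lay far from the others of its group for a member transcript, by the ratio of its gap to the whole range in VSD. Such a gap arose for 3 of 44 members in Sham (6.82%) and for 4 of 44 in HF-HI (9.09%), beside 7.42% and 8.65% of all listed transcripts. About 1 in 20 is the nominal rate of the threshold, which was not measured here. The 7 cases fell in 7 libraries. The values follow as normalized counts.

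The less abundant Plxnb2 transcript (ENSMUST00000060808) was at 25.9 in Sham replicate 5, where the other Sham libraries held 91.8 to 168, and at 7.99 in HF-HI replicate 4, where the others held 109 to 206. In both libraries its partner transcript was the highest of its group, at 343 and 339. Unc5a was at 224 in HF-HI replicate 3, against 369 to 471 in the others. Sema5a was at 524 in HF-HI replicate 1, against 607 to 680. Sema4f was at 363 in HF-HI replicate 7, against 241 to 292. Sema3c was at 232 in Sham replicate 3, against 286 to 324, and Slit3 was at 421 in Sham replicate 4, against 347 to 375.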

How the results depend on the processing

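With the log2 size factor as a covariate, the members called fell from 7 to 2 and all listed transcripts called from 916 to 533. In the libraries with a size factor above 1, a setting chosen after seeing the data, 3 members, 541 listed transcripts and 5 pathway partners (12 as reported) were called, and 1 listed transcript passed the adjusted threshold. These counts rest on fewer degrees of freedom or fewer libraries, and depth differed between the groups. The fit with depth as a covariate therefore cannot fully tell depth from group. The cause of these moves in the counts, and of the other moves, was not tested.

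Leaving out 1 library gave 4 (without HF-HI replicate 7) to 11 (without HF-HI replicate 2) members called and 0 to 1 transcripts past the adjusted threshold, the latter without Sham replicate 5, HF-HI replicate 2 or HF-HI replicate 5. The other settings kept the count of members within 1.5 times, at 5 to 9. The replicate block, on replicates 1 to 7, called 9 members. Same-numbered libraries deviated together at correlations of −0.138 to 0.090, and 1 of 7 correlated best with its own number. The labels do not say what the number marks, and whether same-numbered libraries share a batch was not tested.

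Among the 7 called members, 49 of 63 values under 9 alternatives, and 86 of 105 with 1 library left out, stayed past the threshold, and none changed direction. The 10 uncalled members named by the rule changed direction in 4 of 90 values under the 9 alternatives. With 1 library left out they did so in 13 of 150 values. Efnb3 had a VSD difference of 0.00715 under the replicate block and a log2 difference of 0.00238 with voom. Plxna2 had a VSD difference of −0.015 under the depth covariate, and Robo2 ENSMUST00000117200 had 0.019 in the libraries with a size factor above 1. With 1 library left out, Efnb3 ran from −0.0156 to 0.00868, Unc5a from −0.022 to 0.025 and Plxna2 from −0.00042 to 0.025. Some uncalled transcripts named beyond the rule also crossed 0. Plxnb2 ENSMUST00000060808 ran from −0.018 to 0.081 and Epha5 ENSMUST00000113403 from −0.035 to 0.028. No transcript share passed under either alternative. Transcripts of lower mean were not used here, and the lowest count of a member in 1 library was 4 reads (Plxnb2 ENSMUST00000060808, HF-HI replicate 4).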
